A study of Mus musculus with 38 samples.

Results

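The polysomes of mouse oocytes arrested in the second meiotic metaphase (MII) were compared with those of two-cell embryos held in the M-phase of the second mitosis (two-cell M). The comparison rests on 6 libraries, 3 MII and 3 two-cell M, out of 36 libraries with a column in the deposited table and 38 samples in the labels, and the members were taken by stage and fraction alone. The 36 libraries cover 6 stages in a polysome and a non-polysome fraction each. Both groups came from ICR females of at least 6 weeks that had been primed with gonadotropin. MII oocytes had been collected at the germinal vesicle (GV) stage, denuded of cumulus cells and matured in vitro for 12 h in M16 medium with no drug to hold them. Two-cell M embryos had been fertilised in vivo, recovered as zygotes, cultured in KSOM and treated with 10 µM nocodazole, a microtubule poison that stops cells in mitosis. Meiosis against mitosis, oocyte against embryo, in vitro against in vivo maturation, culture medium and nocodazole therefore change together between the groups and cannot be told apart. The treatment label of the two-cell M libraries names meiosis although their source is the embryo, and the sample titles were followed. Lysates made with cycloheximide, which freezes ribosomes on mRNA, were spread over a sucrose gradient of 10 fractions, and the 5 heavy fractions were pooled as polysomes. The series is described as biological triplicates, and the sources used here do not say what each replicate pooled.

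An mRNA that carries several ribosomes sediments with the polysomes, so its level in that fraction reflects both how much of the mRNA a cell holds and how much of it is being read. Mouse oocytes stop transcribing when fully grown and live on stored mRNAs whose poly(A) tails are lengthened or shortened on schedule, whereas the two-cell embryo has destroyed much of that store and transcribes its own genome. M-phase has been linked in many cells to a lowered rate of cap-dependent translation, and mRNAs that start with a run of pyrimidines, the 5' TOP mRNAs of the ribosomal proteins and elongation factors, respond to mTOR signalling. Values are FPKM (fragments scaled by transcript length and by the library total) to which the authors had added an offset, so the lowest possible value is 0.01, called the floor here, and a fold change fitted with a library at the floor depends on that offset and is no bound. FPKM is a share of a library, and fewer cells and less RNA per cell cannot be told apart with it.

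The 2 groups of libraries differed in their make-up before any single gene was considered. Genes above 1 FPKM numbered 4910, 4827 and 4686 in MII A, B and C and 3465, 3650 and 4004 in two-cell M, a mean difference of 1101 genes whose exact permutation p of 0.1 is the smallest that 3 against 3 libraries allow. Protein-coding genes held 79.1 to 79.6% of the summed FPKM in MII and 38.3 to 39.4% in two-cell M. Rows for ribosomal RNA, 7SL and 7SK took 0.0843 to 0.174% of the MII libraries and 10.6 to 17.8% of the two-cell M libraries. 5 nuclear pseudogene rows whose words match mitochondrial genes took 0.334 to 0.795% and 12.25 to 21.2%, and Gm20594, annotated as protein-coding and matching the 16S rRNA in part, took 0.0419 to 0.0607% and 2.54 to 3.30%. The table has no rows of the mitochondrial chromosome. The 50 most abundant rows held 33.1 to 34.0% of MII and 57.3 to 60.5% of two-cell M. Replicates correlated at r = 0.92 to 0.93 across genes in MII and at 0.67 to 0.71 in two-cell M (log2 FPKM, genes not being independent replicates). A depth estimated from the steps of the low FPKM values was 19310000, 20720000 and 21200000 fragments in MII and 19450000, 14410000 and 11110000 in two-cell M, although only 48.7 to 58.5% of values lay within 0.1 of a whole step, so no read counts were recovered. The part of depth in the gene differences was not tested.

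**Figure D1:**
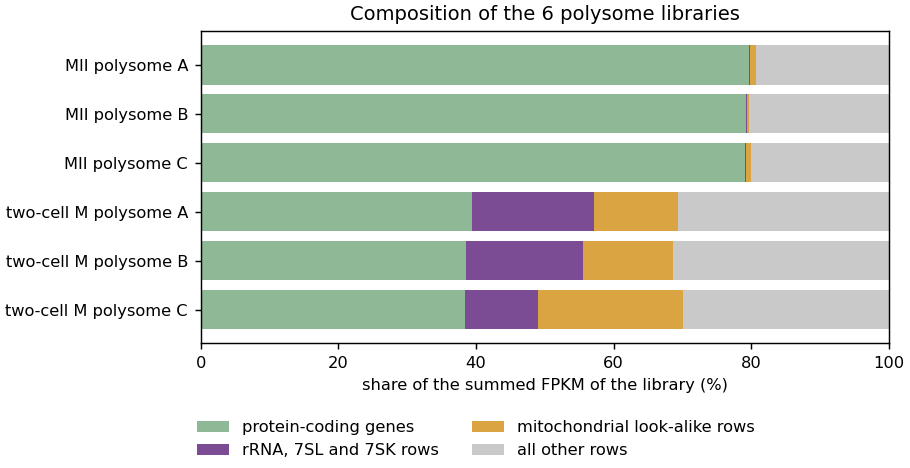
Share of the summed polysome FPKM (%, horizontal axis) taken by protein-coding genes, by rRNA, 7SL and 7SK rows, by 5 nuclear pseudogene rows that match mitochondrial genes and by all other rows, in each of the 3 MII and 3 two-cell M libraries. Protein-coding genes fill 79.1 to 79.6% of each MII bar and 38.3 to 39.4% of each two-cell M bar.

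Single non-coding rows showed the same difference. The ribosomal RNA row CT010467.1 stood at 112, 101 and 67.2 FPKM in MII A, B and C and at 13697, 10118 and 7756 in two-cell M (-6.81 ± 0.46 (SE), adjusted p = 2.87e-12; all fold changes are log2 of MII over two-cell M, so that negative values are higher in two-cell M). Rn7s1, the RNA of the signal recognition particle, was at 43.9, 23.2 and 15.8 in MII and 4219, 4962 and 3896 in two-cell M (-7.42 ± 0.75 (SE), adjusted p = 5.81e-09). Gm28437, in which every 25-base word of the annotated transcript also occurs in the mitochondrial gene mt-Co3, was at 442, 215 and 532 in MII and 6291, 6552 and 13285 in two-cell M (-4.47 ± 0.37 (SE), adjusted p = 2.34e-10). The 3 two-cell M values lay above the 3 MII values in each of these rows. Their part in the gene differences was not tested. Giving every library the same summed FPKM of protein-coding genes, Gm20594 included, moved the median change of all genes from 2.64 to 1.75.

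Most of the polysome difference ran towards MII. Of 23125 genes, 7967 passed a filter on low values, a geometric mean over all 36 libraries of 0.1 FPKM or more, and entered a limma fit over all 36 libraries. At a Benjamini-Hochberg adjusted p under 0.05 and a change of over 2-fold, 3598 genes (45.2%) were higher in MII and 626 (7.86%) were higher in two-cell M, together 53% of those tested, and 3743 were called in neither direction. The median change over the tested genes was 2.64 on the log2 scale, a 6.25-fold difference in a measure that is itself relative, so list medians below are to be read against it. Every MII value lay above every two-cell M value in 4086 genes (51.3%), and the reverse held in 1037 (13%). When quantile normalization forced the libraries onto one distribution, the median fell to 0.14 and the calls were 1835 (23%) higher in MII and 1808 (22.7%) higher in two-cell M. When each library was centred on its median, the median change was 0.44 and the calls were 1557 (19.5%) and 1447 (18.2%). MII thus held 85.2% of the calls as deposited, 75.1% with equal protein-coding sums, 50.4% with quantile normalization and 51.8% with centring. A gene was called in the same direction under the deposited, the quantile and the centred scale in 1322 cases (16.6%) for MII and 625 cases (7.84%) for two-cell M. Both rescalings move the tested genes as a whole towards two-cell M, centring by the same amount in every gene, so a call in that direction could hardly be lost and its keeping is no measure of stability. Counts of list members are given below on the deposited scale, with their shares of the tested members and the counts under the rescalings in brackets, those higher in MII first. The shares of all genes to read them against are 45.2% and 7.86% as deposited, 23% and 22.7% with quantile normalization and 19.5% and 18.2% with centring. Leaving out each of the 6 libraries in turn kept 2555 of the MII calls and 457 of the two-cell M calls in all 6 fits.

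**Figure D2:**
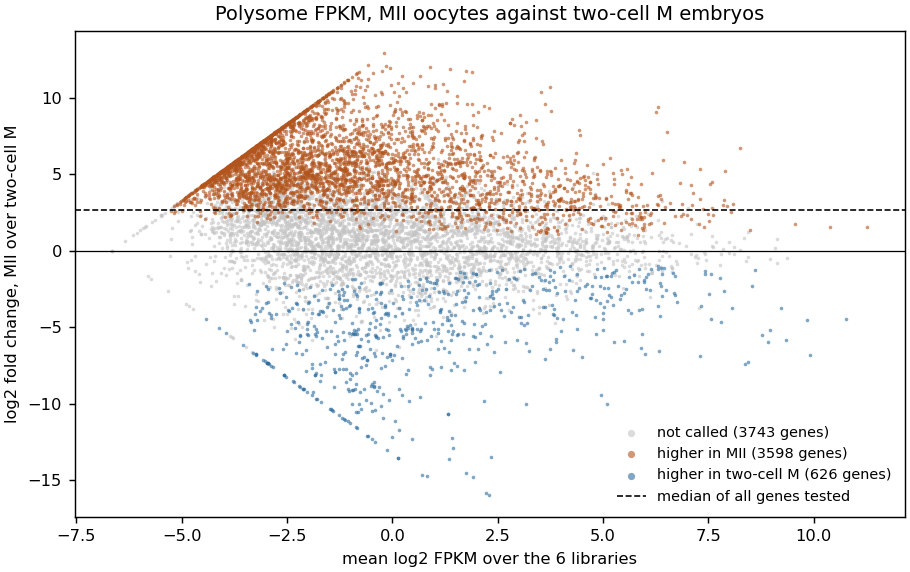
Log2 fold change of MII over two-cell M polysomes (vertical axis) against the mean log2 FPKM of the 6 libraries (horizontal axis) for the 7967 genes tested, with the 3598 genes called higher in MII, the 626 called higher in two-cell M and the 3743 not called in separate colours. The dashed line is the median change, 2.64, and the cloud is centred on it and not on 0.

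Genes for secreted factors and for the egg surface were called towards MII. All 5 tested genes for oocyte-secreted factors and all 9 tested genes for the zona pellucida and egg surface were higher in MII on the deposited scale, against 45.2% of all genes. Rescaling lowered these counts, all of them higher in MII, to 4 and 7 with quantile normalization and 3 and 4 with centring. Their median changes were 5.05 and 4.14, which is 2.41 and 1.501 above the median of all genes, and they were 4.25 and 3.30 with quantile normalization and 2.85 and 1.95 with centring. Gdf9, the growth factor through which the oocyte directs its granulosa cells, was at 386, 379 and 473 FPKM in MII and 13.9, 2.89 and 47.1 in two-cell M (5.05 ± 0.73 (SE), adjusted p = 2.21e-06). Bmp15, its partner ligand, was at 51.1, 59.6 and 42.2 in MII and 15.7, 5.203 and 8.57 in two-cell M (2.51 ± 0.67 (SE), adjusted p = 0.00275). Fgf8, a ligand that acts on cumulus cells, was at 272, 233 and 150.4 in MII and 0.842, 0.0327 and 0.01 in two-cell M. The groups did not overlap for any of the 3 ligands, and two-cell M C was the highest of its group for Gdf9, with 47.1 FPKM.

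Zona proteins and the egg receptor for sperm followed. Zp3, a glycoprotein of the zona filaments, was at 295, 262 and 247 FPKM in MII and 3.29, 4.58 and 22.8 in two-cell M (5.25 ± 0.88 (SE), adjusted p = 1.84e-05). Zp1, which cross-links zona filaments, was at 333, 239 and 309 in MII and 17.2, 14.04 and 49.5 in two-cell M (3.67 ± 0.82 (SE), adjusted p = 0.000538). Izumo1r, known as Juno, through which the egg membrane recognises sperm, was at 60.7, 55.2 and 54.7 in MII and 0.143, 0.936 and 4.45 in two-cell M (6.08 ± 0.68 (SE), adjusted p = 3.66e-08). Again no library of one group reached the other.

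The subcortical maternal complex is a protein lattice under the egg membrane that the embryo needs to pass the early cleavages. Of 7 members tested, 5 were higher in MII and 0 in two-cell M (71.4% and 0%, then 5 and 0 with quantile normalization, 2 and 0 with centring; median 3.04; 0.39 relative to all genes). Khdc3 was at 378, 460.3 and 418 FPKM in MII and 0.01, 0.143 and 23.05 in two-cell M, with one embryo library at the floor. Ooep was at 169, 231 and 284 in MII and 19.4, 20.99 and 49.6 in two-cell M (3.04 ± 0.42 (SE), adjusted p = 1.15e-06), and Zbed3 at 838, 574 and 846 in MII and 75.3, 38.4 and 138 in two-cell M (3.33 ± 0.42 (SE), adjusted p = 3.11e-07). The embryo libraries still held at least 19.4 FPKM of Ooep and 38.4 of Zbed3. H1foo, which packs oocyte chromatin in place of somatic H1, was at 1308, 1021 and 1845 FPKM in MII and 1.83, 4.44 and 30.2 in two-cell M (7.75 ± 0.68 (SE), adjusted p = 5.75e-10). In the list of linker histones, histone variants and chaperones that holds it, 5 of 14 were higher in MII and 2 in two-cell M (35.7% and 14.3%, then 5 and 4 with quantile normalization, 2 and 5 with centring), with a median of 0.91 that centring took to -1.29.

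Factors that store and silence maternal mRNA were counted higher in MII in 7 of 13 tested genes and in two-cell M in 0, against 45.2% and 7.86% of all genes (53.8% and 0%, then 5 and 1 with quantile normalization, 5 and 1 with centring), with a median of 2.84, close to that of all genes. Zar1, which holds translationally silent mRNAs, was at 329.9, 333 and 337 FPKM in MII and 2.63, 0.2102 and 4.91 in two-cell M (7.9 ± 0.63 (SE), adjusted p = 1.16e-10). Cpeb1, which binds the cytoplasmic polyadenylation element, was at 3.85, 6.101 and 3.74 in MII and 0.367, 0.0138 and 0.04404 in two-cell M (6.19 ± 1.14 (SE), adjusted p = 6.12e-05). Dazl, a germ-cell regulator of translation, was at 6.33, 7.08 and 2.78 in MII and 0.01, 0.127 and 0.156 in two-cell M (6.42 ± 1.19 (SE), adjusted p = 7e-05). All 3 mRNA binders were under 5 FPKM in every embryo library. In the clearance list, 9 of 18 were higher in MII and 1 in two-cell M (50% and 5.56%, then 5 and 5 with quantile normalization, 6 and 3 with centring; median 2.45, turning to -0.54 with quantile normalization). Btg4, the adaptor that brings the CCR4-NOT deadenylase to maternal mRNA at egg maturation, was at 19.7, 31.5 and 10.95 FPKM in MII and 0.334, 0.522 and 0.973 in two-cell M (5.1 ± 0.55 (SE), adjusted p = 1.99e-08). Members of one deadenylase went in opposite directions. Pan2, the catalytic subunit of the PAN2-PAN3 deadenylase, was at 7.74, 10.5 and 5.09 in MII and 0.01, 0.0139 and 0.01999 in two-cell M (9.05 ± 0.84 (SE), adjusted p = 1.42e-09), while Pan3, its adaptor, was at 0.0371, 0.0492 and 0.0546 in MII and 1.07, 1.62 and 1.29 in two-cell M (-4.82 ± 0.8 (SE), adjusted p = 1.75e-05). Pan3 was the only member of this list called higher in two-cell M.

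The machinery of M-phase itself was the next set examined, since both groups stand in M-phase. Cytostatic factor keeps the egg at MII through Mos, a kinase that activates MAPK, and Emi2, which blocks the anaphase-promoting complex. Of 9 genes of this pathway tested, 4 were higher in MII and 0 in two-cell M, a share near the 45.2% of all genes (44.4% and 0%, then 3 and 1 with quantile normalization, 2 and 0 with centring; median 2.77). Mos was at 1442, 2021 and 1926 FPKM in MII and 12.2, 0.202 and 14.7 in two-cell M (9.07 ± 1.44 (SE), adjusted p = 9.05e-06). Fbxo43, which encodes Emi2, was at 5.33, 6.098 and 1.92 in MII and 0.0135, 0.01 and 0.0404 in two-cell M (7.82 ± 0.88 (SE), adjusted p = 4.51e-08). Plk1, the mitotic kinase that also primes Emi2 for destruction, was at 111, 81.2 and 144 in MII and 4.23, 13.2 and 19.8 in two-cell M (3.4 ± 0.76 (SE), adjusted p = 0.000538). Mos was among the 8 most abundant protein-coding genes of the MII libraries, and its embryo values differed widely, with B far below A and C.

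Checkpoint and anaphase genes did not move as a block. Of 24 tested, 8 were higher in MII and 2 in two-cell M (33.3% and 8.33%, then 6 and 5 with quantile normalization, 3 and 6 with centring), with a median of 1.55 that turned to -0.76 with quantile normalization and -0.65 with centring. Bub1b, which encodes the checkpoint kinase BubR1, was at 19.95, 17.7 and 6.94 FPKM in MII and 0.266, 0.026 and 0.145 in two-cell M (7.07 ± 1.25 (SE), adjusted p = 3.59e-05). Ttk, the kinase that starts checkpoint signalling at unattached kinetochores, was at 6.202, 2.52 and 1.17 in MII and 0.04001, 0.0266 and 0.0673 in two-cell M (5.99 ± 1.07 (SE), adjusted p = 4.29e-05). Pttg1, which encodes securin, the inhibitor of separase, was at 50.97, 55.1 and 51.4 in MII and 85.97, 99.01 and 206 in two-cell M (-1.2 ± 0.37 (SE), adjusted p = 0.00774); its call was lost without two-cell M C, the library with the highest value. Anapc11, the catalytic RING subunit of the complex, was at 1.99, 2.07 and 1.57 in MII and 4.61, 5.97 and 4.503 in two-cell M (-1.42 ± 0.52 (SE), adjusted p = 0.0229), a call lost without MII C or without two-cell M B. Cdc20, the coactivator that the checkpoint restrains, was at 130.4, 136 and 157 in MII and 82.9, 56.8 and 74.3 in two-cell M. Its groups did not overlap, yet with 1.0 ± 0.36 (SE), adjusted p = 0.0219 it fell just short of the 2-fold limit, and with centring it was called higher in two-cell M (-1.20, adjusted p = 0.0318).

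Among cyclins and their kinases, 12 of 23 were higher in MII and 3 in two-cell M, against 45.2% and 7.86% of all genes (52.2% and 13%, then 6 and 7 with quantile normalization, 5 and 5 with centring; median 2.33, -0.32 relative to all genes). Ccnb2, a mitotic cyclin partner of CDK1, was at 5.54, 3.197 and 6.21 FPKM in MII and 0.355, 0.03504 and 0.023 in two-cell M (6.18 ± 1.31 (SE), adjusted p = 0.000312). Ccnb1, the other main M-phase cyclin, differed less, at 122, 108 and 132 in MII and 28.95, 31.1 and 27.5 in two-cell M (2.04 ± 0.42 (SE), adjusted p = 0.000249), and its change of -0.16 with centring was slightly below 0. Ccno, a cyclin abundant in oocytes, was at 763, 573 and 711 in MII and 7.09, 3.67 and 50.3 in two-cell M (5.95 ± 0.89 (SE), adjusted p = 3.92e-06). Wee2, the oocyte kinase that inhibits CDK1, was at 12.5, 8.73 and 6.01 in MII and 1.05, 0.0626 and 2.24 in two-cell M (4.04 ± 0.8 (SE), adjusted p = 0.000151). No embryo library reached an MII library in any of these 4. The 3 genes of the list that were higher in two-cell M belong to other roles. Cdkn1a, which encodes the CDK inhibitor p21, was at 0.111, 0.134 and 0.0923 FPKM in MII and 5.45, 3.78 and 6.17 in two-cell M (-5.5 ± 1.24 (SE), adjusted p = 0.000595). Cks2, a small CDK subunit, was at 3.47, 4.41 and 3.91 in MII and 25.1, 22.6 and 22.4 in two-cell M (-2.58 ± 0.45 (SE), adjusted p = 2.74e-05). Ccne1, the cyclin of S-phase entry, was at 0.0208, 1.47 and 0.647 in MII and 5.9, 8.96 and 16.7 in two-cell M (-5.15 ± 1.42 (SE), adjusted p = 0.00359), a call lost without MII A, the library with the lowest value.

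At the centromere and kinetochore 15 of 29 tested genes were higher in MII and 0 in two-cell M, against 45.2% and 7.86% of all genes (51.7% and 0%, then 9 and 5 with quantile normalization, 5 and 4 with centring), with a median of 2.66, close to that of all genes. Aurka, the spindle-pole kinase, was at 42.9, 40.4 and 63.4 FPKM in MII and 4.99, 3.07 and 8.02 in two-cell M (3.27 ± 0.65 (SE), adjusted p = 0.000164). Aurkc, the meiotic relative of Aurkb in the chromosomal passenger complex, was at 12.2, 12 and 12.95 in MII and 0.573, 1.701 and 2.67 in two-cell M (3.17 ± 0.54 (SE), adjusted p = 2.47e-05). Spc24, of the NDC80 complex that grips microtubules, was at 36.5, 35.3 and 31.4 in MII and 0.0312, 0.281 and 1.12 in two-cell M (7.33 ± 0.82 (SE), adjusted p = 4.19e-08). Each of the 3 stood far above every embryo library. Birc5, or survivin, was at 45.3, 54.9 and 65.2 in MII and 8.29, 14.3 and 15.8 in two-cell M (2.14 ± 0.36 (SE), adjusted p = 1.97e-05), a change that centring took to -0.05. Cenpa, the histone variant that marks centromeres, ran the other way without a call, at 10.5, 19.3 and 14.6 in MII and 47.1, 33.7 and 19.9 in two-cell M (-1.14 ± 0.54 (SE), adjusted p = 0.0785), and its groups did not overlap. Cenpa was called higher in two-cell M with quantile normalization (-2.02, adjusted p = 0.0048) and with centring (-3.34, adjusted p = 3.77e-05). Meiotic cohesin and synapsis genes gave 2 higher in MII and 0 in two-cell M of only 3 tested (66.7% and 0%, then 1 and 1 with quantile normalization, 0 and 0 with centring).

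Tubulins were higher in MII in 10 of 15 genes and in two-cell M in 1 (66.7% and 6.67%, then 9 and 2 with quantile normalization, 5 and 2 with centring; median 3.42; 0.78 above all genes; 2.80 with quantile normalization). Tubb4b was at 562, 551 and 796 FPKM in MII and 121, 68.9 and 157 in two-cell M (2.52 ± 0.74 (SE), adjusted p = 0.00594). Tubb3, the class III beta tubulin, was at 86.2, 73.2 and 85.6 in MII and 0.306, 3.21 and 11.1 in two-cell M (5.2 ± 0.92 (SE), adjusted p = 3.67e-05). Tuba4a was at 508, 459 and 636 in MII and 28.3, 8.34 and 61.7 in two-cell M (4.44 ± 1.56 (SE), adjusted p = 0.0185), and its call was lost without two-cell M B. The groups were separate in all 3 genes. Tubulin genes share sequence: 57.7% of the 25-base words of Tubb4b occur in other genes, so their fragments may have been divided between rows. The gene higher in two-cell M was Tubg2, a gamma tubulin of the spindle poles, at 18.5, 11 and 17.8 in MII and 29.9, 26.4 and 162 in two-cell M (-1.72 ± 0.47 (SE), adjusted p = 0.00318), which was lost without two-cell M C, where it reached 162 FPKM. The MCM proteins, which license origins for the S-phase to come, were higher in MII in 8 of 16 licensing genes and in two-cell M in 0 (3 and 0 with quantile normalization, 1 and 0 with centring; median 2.85, 0.21 above all genes), a share of 50% close to the 45.2% of all genes, with Mcm5 at 58.8, 48.4 and 50.6 in MII and 3.78, 5.46 and 0.0195 in two-cell M (6.15 ± 1.59 (SE), adjusted p = 0.00209).

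The cytosolic ribosome was the largest set that stood on the embryo side. None of 34 small-subunit genes was called higher in MII and 13 were higher in two-cell M, and of 47 large-subunit genes 1 was higher in MII and 8 in two-cell M, against 7.86% of all genes. Of these two-cell M calls, 6 in each subunit held in all 6 fits that left out a library. Rescaling gave 0 and 21 with quantile normalization, 0 and 27 with centring for the small subunit, and 0 and 18 with quantile normalization, 0 and 29 with centring for the large one. The medians were -1.30 and -0.34, which is -3.94 and -2.99 relative to all genes, and both stayed below 0 under quantile normalization (-2.35 and -1.45) and centring (-3.50 and -2.54). Rpl41, the smallest ribosomal protein, was at 45.6, 52.01 and 35.96 FPKM in MII and 1694, 1152 and 729 in two-cell M (-4.67 ± 0.51 (SE), adjusted p = 2.85e-08). Rpl37a was at 4.41, 5.83 and 4.02 in MII and 129.6, 83.2 and 63.95 in two-cell M (-4.24 ± 0.57 (SE), adjusted p = 7.82e-07). Rplp1, of the stalk that recruits elongation factors, was at 40.6, 53.2 and 26.6 in MII and 285, 355 and 236 in two-cell M (-2.9 ± 0.56 (SE), adjusted p = 0.000101). Rplp2, its partner in the stalk, was lower in level but parted the groups as clearly, at 11.1, 13.4 and 11.2 in MII and 57.3, 52.2 and 69.9 in two-cell M (-2.32 ± 0.48 (SE), adjusted p = 0.000235). Every embryo library exceeded every MII library in these 4 genes. In the small subunit, Rps2, at the mRNA entry channel, was at 11.01, 9.53 and 7.69 in MII and 90.7, 84.8 and 131 in two-cell M (-3.43 ± 0.96 (SE), adjusted p = 0.00385). Rps26, at the mRNA exit channel, was at 7.06, 8.51 and 11.4 in MII and 73.8, 81.4 and 68.7 in two-cell M (-3.08 ± 0.74 (SE), adjusted p = 0.00104). Rps29 was at 29.3, 29.8 and 25.9 in MII and 254.5, 202 and 99.3 in two-cell M (-2.61 ± 0.55 (SE), adjusted p = 0.00028). The same separation held in these small-subunit genes. The exception was Rpl35, at 13.3, 12.6 and 14.5 in MII and 3.73, 5.95 and 5.31 in two-cell M (1.46 ± 0.62 (SE), adjusted p = 0.0494); this call was lost when any of the 6 libraries was left out and its sign turned to -0.74 with centring. Ribosomal protein genes have many processed copies, and 80% of the 25-base words of Rplp1 and 51.1% of those of Rps2 occur in other genes, so single values are uncertain where fragments could be divided.

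The mitochondrial ribosome, whose proteins are also nuclear-encoded, lay near all genes on the deposited scale. Of 74 tested genes, 36 (48.6%, against 45.2% of all genes) were higher in MII and 1 in two-cell M (28 and 6 with quantile normalization, 17 and 10 with centring), with a median of 2.93, 0.29 above that of all genes (1.54 and 0.73 under quantile normalization and centring, where all genes had 0.14 and 0.44). With quantile normalization the list thus lay further towards MII than all genes, of which 23% were called higher in MII. Mrpl12 was at 160.4, 154 and 114 FPKM in MII and 18.3, 24.2 and 14.9 in two-cell M (2.91 ± 0.59 (SE), adjusted p = 0.0002). Mrpl14 was at 26.9, 32.3 and 20.7 in MII and 0.01, 0.443 and 0.01 in two-cell M, where A and C were at the floor. Mrpl13 was the one gene on the embryo side, at 0.474, 0.304 and 0.45 in MII and 2.17, 2.94 and 2.05 in two-cell M (-2.55 ± 0.8 (SE), adjusted p = 0.00919). The cytosolic medians were -0.34 and -1.30 and the mitochondrial one 2.93, on one scale of MII over two-cell M.

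The snoRNA host transcripts, a class known for pyrimidine starts like those of ribosomal protein mRNAs, were higher in two-cell M in 9 of 11 and in MII in 1 (9.09% and 81.8%, then 0 and 9 with quantile normalization, 0 and 9 with centring; median -5.24; -7.88 relative to all genes). Gas5, a host non-coding RNA, was at 0.148, 0.397 and 0.205 FPKM in MII and 10.6, 6.48 and 8.45 in two-cell M (-5.19 ± 0.96 (SE), adjusted p = 6.82e-05). Zfas1 was at 0.204, 0.208 and 0.203 in MII and 14.7, 10.6 and 12.7 in two-cell M (-5.94 ± 0.83 (SE), adjusted p = 1.52e-06), and Snhg1 at 0.256, 0.0588 and 0.0418 in MII and 3.301, 2.81 and 14.96 in two-cell M (-5.92 ± 1.35 (SE), adjusted p = 0.000654). The 3 non-coding hosts were under 0.4 FPKM in each MII library. Tpt1, a coding TOP mRNA that also hosts a snoRNA, was at 2.82, 1.39 and 2.26 in MII and 8.19, 10.9 and 24.6 in two-cell M (-2.65 ± 0.47 (SE), adjusted p = 4.44e-05). Snhg18 was the exception, at 2.49, 2.495 and 2.301 in MII and 1.69, 0.01 and 0.0539 in two-cell M (4.64 ± 1.42 (SE), adjusted p = 0.00751), a call lost without two-cell M B.

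The start sites of these genes were read from RefSeq (GRCm38.p6). The windows below are 25 bases, 5' to 3', around the annotated start of ribosomal protein and snoRNA host genes that begin with C and 4 pyrimidines. They were picked for that run, which most members of both lists lack, to show what the count of such starts rests on. Only genes called higher in two-cell M are shown. Members with such a start and no such call are left out, so the windows do not link the run to a direction. Capitals mark the pyrimidine run from the annotated first base.
Rpl38 (chr11:114668570-114668594): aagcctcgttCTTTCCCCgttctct
Rplp2 (chr7:141447641-141447665): cagcgtcttcCTTTCgccgccggac
Rps15a (chr7:118116133-118116157, minus strand): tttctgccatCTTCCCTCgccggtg
Rps21 (chr2:180257369-180257393): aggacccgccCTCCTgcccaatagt
Gas5 (chr1:161035156-161035180): ccatctcagcCTTTCggagctgtgc
Snhg8 (chr3:123508322-123508346, minus strand): gttcagaagtCTCTTTggctgcgat

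A start of C followed by 4 pyrimidines was annotated for 7 of 25 small-subunit genes (28%), 7 of 37 large-subunit genes (18.9%), 3 of 14 snoRNA hosts (21.4%) and 0 of 69 mitochondrial ribosomal protein genes with a promoter entry, against 3.01% of 27025 symbols. Rpl38 was at 0.5096, 0.644 and 0.934 FPKM in MII and 4.499, 4.4 and 3.202 in two-cell M (-2.56 ± 0.69 (SE), adjusted p = 0.00287), and Rps21 at 8.77, 10.97 and 8.56 in MII and 74.7, 55.1 and 30.8 in two-cell M (-2.42 ± 0.67 (SE), adjusted p = 0.0036). Over all tested genes with a promoter entry, the 166 with such a start had a median change of 2.42 and the 5075 others 2.85. A start of this kind was annotated for 3.29% of the 304 genes with an entry that were called higher in two-cell M and for 2.79% of the 2509 called higher in MII. The pyrimidine start was thus frequent in the ribosomal lists and nearly as frequent in one direction of change as in the other over all genes. A match is a description of annotated letters, and annotated starts can be off by a few bases.

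Translation factors were divided. Of 40 initiation factors 11 were higher in MII and 6 in two-cell M (27.5% and 15%, then 6 and 14 with quantile normalization, 2 and 13 with centring), and the median of 1.14 turned to -0.85 with quantile normalization and -1.06 with centring. Eif1, which guards start codon choice, was at 96.3, 110.3 and 118 FPKM in MII and 245, 277 and 304 in two-cell M (-1.35 ± 0.24 (SE), adjusted p = 4.79e-05), whereas its relative Eif1b was at 73.4, 67.5 and 89.9 in MII and 5.77, 2.59 and 45.04 in two-cell M (3.12 ± 0.66 (SE), adjusted p = 0.000283). Eif4ebp1, the mTOR-controlled inhibitor of the cap-binding protein eIF4E, was at 0.172, 0.196 and 0.348 in MII and 5.88, 1.34 and 7.09 in two-cell M (-4.07 ± 1.11 (SE), adjusted p = 0.00325). The split between Eif1 and Eif1b was complete, with no overlap in either. Eif6, which keeps free 60S subunits from joining, was at 682, 660 and 411 in MII and 189, 242 and 256 in two-cell M (1.33 ± 0.33 (SE), adjusted p = 0.00164), and centring took it to -0.87. Elongation and release factors gave 3 and 3 calls of 11 (27.3% and 27.3%, then 3 and 5 with quantile normalization, 1 and 5 with centring). Eif5a, which relieves stalled ribosomes, was at 37.3, 51.4 and 53.4 in MII and 102, 102 and 116 in two-cell M (-1.19 ± 0.34 (SE), adjusted p = 0.00417). Etf1, which encodes the release factor eRF1 that reads stop codons, was at 0.0649, 0.0728 and 0.0891 in MII and 3.904, 3.698 and 2.21 in two-cell M (-5.4 ± 1.0 (SE), adjusted p = 6.73e-05). In the mTOR, AKT and S6 kinase list, 6 of 11 were higher in MII and 0 in two-cell M (54.5% and 0%, then 0 and 2 with quantile normalization, 0 and 2 with centring), with a median of 3.01 that turned to -1.29 with quantile normalization, where none was called higher in MII.

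Ribosome assembly in the nucleolus and the tRNA-processing RNase P counted 5 higher in MII and 7 higher in two-cell M of 40 (12.5% and 17.5%, then 2 and 20 with quantile normalization, 2 and 16 with centring; median -0.24; -2.88 relative to all genes). Imp3, of the small-subunit processome, was at 27.97, 18.03 and 22.3 FPKM in MII and 179, 296 and 391 in two-cell M (-3.62 ± 0.35 (SE), adjusted p = 2.53e-09). Nop10, of the H/ACA particle that makes pseudouridine, was at 32.6, 31.1 and 32.5 in MII and 109, 142 and 115 in two-cell M (-1.92 ± 0.37 (SE), adjusted p = 0.000122). Nhp2, of the same particle, was at 31.2, 39.2 and 38.5 in MII and 91.3, 119 and 152 in two-cell M (-1.71 ± 0.52 (SE), adjusted p = 0.00711). All 3 genes were separate between the groups. Nip7, which works in 60S assembly, was at 14.4, 35.2 and 22.4 in MII and 64.1, 56.1 and 65.9 in two-cell M (-1.46 ± 0.44 (SE), adjusted p = 0.00702), a call lost without MII A.

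Several lists had no call in one direction. By limma without adjustment of p, 0 genes of the oocyte-secreted, zona, subcortical, storage, cytostatic factor, proteasome, mTOR, MCM and CCT lists were higher in two-cell M at p under 0.05, and 1 of the kinetochore list was. In the other direction 0 of the small-subunit ribosomal genes and 0 of the elongin list, which does not hold Elobl, were higher in MII, while 17 and 4 were higher in two-cell M. For the CCT list 3 genes were higher in MII before adjustment.

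**Figure D3:**
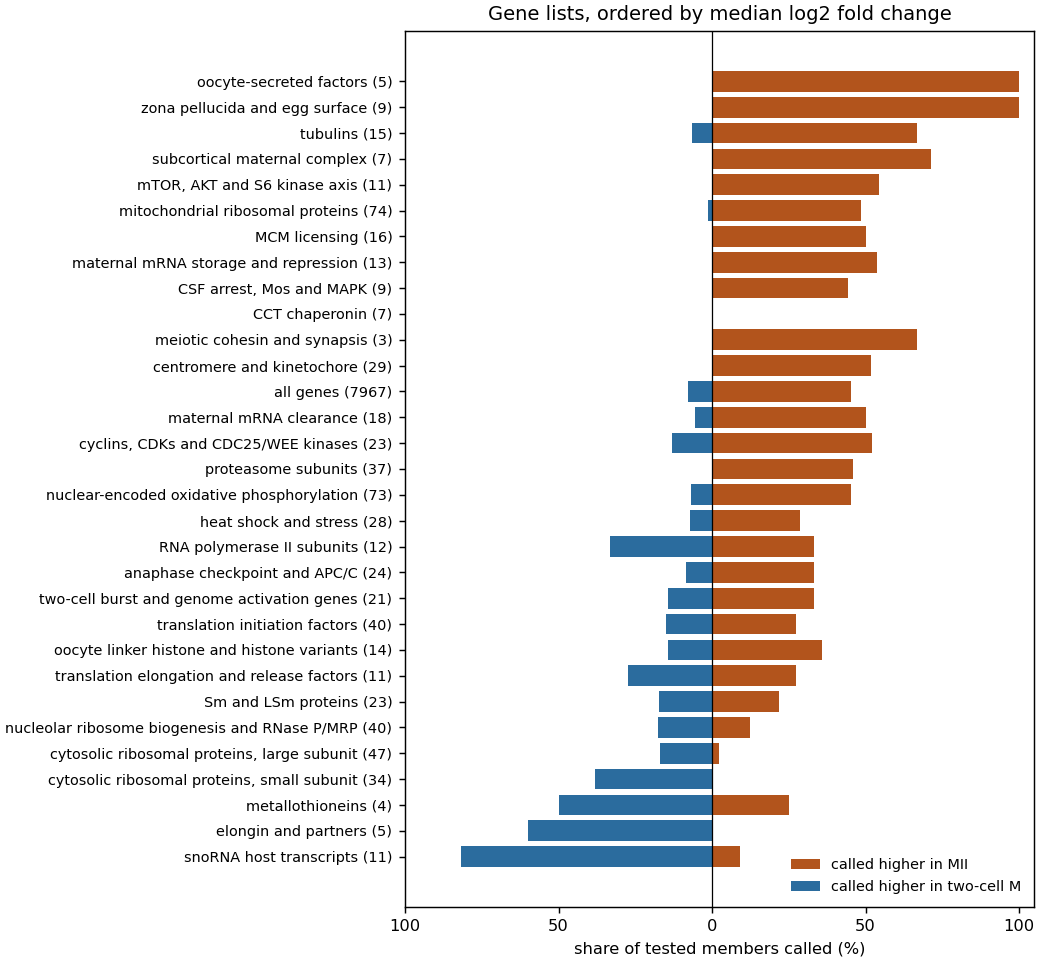
Share of the tested members of each gene list (%, horizontal axis) called higher in MII and higher in two-cell M, with the lists ordered by their median log2 fold change and all 7967 genes for reference (45.2% and 7.86%). Zona and oocyte-secreted lists stand at one end with every tested member higher in MII, and snoRNA hosts, the elongin list, metallothioneins and the cytosolic ribosome stand at the other.

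Genes of transcription and RNA processing were mixed. RNA polymerase II subunits were higher in MII in 4 and in two-cell M in 4 of 12 (33.3% and 33.3%, then 3 and 5 with quantile normalization, 2 and 5 with centring), and the median of 1.57 turned to -1.05 with quantile normalization. Polr2i was at 114, 134 and 99.6 FPKM in MII and 42.7, 25.7 and 35.2 in two-cell M (1.77 ± 0.54 (SE), adjusted p = 0.00767; -0.43 with centring), while Polr2j was at 22.6, 28.5 and 25.1 in MII and 92.05, 67.7 and 190 in two-cell M (-2.06 ± 0.42 (SE), adjusted p = 0.000217). Of the Sm and LSm proteins, which form the core of spliceosomal snRNPs and of decapping complexes, 5 were higher in MII and 4 in two-cell M of 23 (21.7% and 17.4%, then 2 and 11 with quantile normalization, 0 and 11 with centring). Lsm10, of the U7 snRNP that processes histone mRNA, was at 237, 288 and 283 in MII and 37.8, 1.53 and 15.6 in two-cell M (4.8 ± 1.11 (SE), adjusted p = 0.000765). Lsm7 was at 1.48, 2.96 and 1.65 in MII and 6.51, 7.09 and 3.403 in two-cell M (-1.48 ± 0.56 (SE), adjusted p = 0.0279), a call lost without MII A, MII C, two-cell M A or two-cell M B. Elob, the elongin B subunit of several ubiquitin ligases and of the elongin complex, was at 0.958, 0.562 and 0.507 in MII and 25.05, 34.3 and 24.6 in two-cell M (-5.41 ± 0.69 (SE), adjusted p = 3.59e-07), and 3 of 5 tested genes of a list of elongins and their partners were higher in two-cell M, against 7.86% of all genes (0% and 60%, then 0 and 5 with quantile normalization, 0 and 5 with centring, median -5.07). The list leaves out Elobl, which was higher in MII and is given with the gene pairs. Elob was also high at the GV stage, at 31.1 ± 21.3 FPKM (SD, n = 3), so its 3 MII values lay under the means of both.

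Genes of the two-cell transcription burst and genome activation were called in both directions: 7 of 21 were higher in MII and 3 in two-cell M (33.3% and 14.3%, then 6 and 6 with quantile normalization, 4 and 6 with centring; median 1.34, and -0.95 with quantile normalization). The filter on low values decides much here, since only 21 of 38 members in the table entered the test and 11 were at the floor in all 3 MII libraries. Over the 38 members, every MII value exceeded every two-cell M value in 8 and the reverse held in 8, against 7268 (31.4%) and 2188 (9.46%) of the 23125 genes in the table. Among the latter was Obox6, untested, at 0.01, 0.01 and 0.01 FPKM in MII and 6.296, 8.64 and 14.4 in two-cell M. The members higher in MII included homeobox genes of the Obox family, which the oocyte also transcribes. Obox1 was at 5.87, 4.41 and 1.98 FPKM in MII and 0.129, 0.0113 and 0.0205 in two-cell M (6.9 ± 0.73 (SE), adjusted p = 1.63e-08), and Obox5 at 66.6, 57.2 and 40.4 in MII and 1.94, 0.3401 and 10.2 in two-cell M (4.83 ± 1.01 (SE), adjusted p = 0.000278). Tmem92 was higher in the embryo, at 0.0761, 0.793 and 0.784 in MII and 14.4, 8.36 and 15.96 in two-cell M (-5.1 ± 1.02 (SE), adjusted p = 0.000152). A pair of relatives outside the list, chosen after their values were seen, split by stage. Obox8 was at the floor in all 3 MII libraries and at 31.9, 13.1 and 29.3 in two-cell M (adjusted p = 1.82e-11), while Obox7 was at 9.22, 7.03 and 5.68 in MII and 0.01, 0.0313 and 0.0515 in two-cell M (8.15 ± 1.21 (SE), adjusted p = 3.59e-06).

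Protein turnover and energy genes lay near the bulk on the deposited scale. With quantile normalization the proteasome and oxidative phosphorylation medians were 1.03 and 0.98, against 0.14 for all genes. With centring they were 0.07 and 0.06, against 0.44. Proteasome subunits were higher in MII in 17 and in two-cell M in 0 of 37 (45.9% and 0%, then 12 and 4 with quantile normalization, 7 and 5 with centring; median 2.26; -0.38 relative to all genes). Psmb6, a catalytic core subunit, was at 264.8, 344 and 216 FPKM in MII and 20.4, 18.9 and 43.8 in two-cell M (3.4 ± 0.46 (SE), adjusted p = 8.21e-07). Nuclear genes of oxidative phosphorylation counted 33 higher in MII and 5 in two-cell M of 73 (45.2% and 6.85%, then 23 and 9 with quantile normalization, 14 and 17 with centring; median 2.25). Cox4i1, of cytochrome c oxidase, was at 129.8, 151 and 101 in MII and 8.73, 15.7 and 8.33 in two-cell M (3.59 ± 0.52 (SE), adjusted p = 2.94e-06). Other small subunits of the same enzyme ran the other way, with Cox8a at 31.3, 28.9 and 22.9 in MII and 139, 183 and 147 in two-cell M (-2.5 ± 0.4 (SE), adjusted p = 1.12e-05) and Cox6c at 1.04, 1.27 and 1.16 in MII and 11.7, 6.22 and 5.17 in two-cell M (-2.64 ± 0.47 (SE), adjusted p = 4.29e-05). None of the 7 CCT chaperonin genes was called by limma in either direction, although the median was 2.76 (0% and 0%, then 0 and 1 with quantile normalization, 0 and 1 with centring).

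The metallothionein list, 4 tested genes with their regulator, held 2 genes higher in two-cell M, against 7.86% of all genes, and 1 higher in MII (25% and 50%, then 0 and 2 with quantile normalization, 0 and 2 with centring). Mt1 was at 1.63, 0.359 and 2.77 FPKM in MII and 1014, 786 and 659.7 in two-cell M (-9.42 ± 0.72 (SE), adjusted p = 4.76e-11), and its interphase two-cell level was 277 ± 66.1 FPKM (SD, n = 3). Mt2 was at 0.01, 0.01 and 0.114 in MII, A and B being at the floor, and 383, 216 and 275 in two-cell M. Both encode cysteine-rich proteins that bind zinc and copper and are switched on through metal response elements by the factor MTF-1. Mtf1 itself was higher in MII on the deposited scale but under neither rescaling, at 1.17, 1.55 and 1.33 in MII and 0.576, 0.04201 and 0.0931 in two-cell M (3.35 ± 0.91 (SE), adjusted p = 0.00326). The 2 promoters are shown because the genes lie beside each other and moved together. Capitals mark the letters TGCACNC or TGCGCNC, the core of the metal response element, read on either strand in the window from 250 bases before to 50 after the RefSeq start (GRCm38.p6, plus strand).
Mt1 (chr8:94178839-94179138): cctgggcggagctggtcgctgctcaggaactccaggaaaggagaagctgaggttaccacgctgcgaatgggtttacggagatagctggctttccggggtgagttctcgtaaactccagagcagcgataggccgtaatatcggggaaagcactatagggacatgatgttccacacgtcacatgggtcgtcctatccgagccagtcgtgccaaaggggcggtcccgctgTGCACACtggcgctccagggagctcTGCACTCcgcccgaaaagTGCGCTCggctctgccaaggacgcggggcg
Mt2 (chr8:94172368-94172667): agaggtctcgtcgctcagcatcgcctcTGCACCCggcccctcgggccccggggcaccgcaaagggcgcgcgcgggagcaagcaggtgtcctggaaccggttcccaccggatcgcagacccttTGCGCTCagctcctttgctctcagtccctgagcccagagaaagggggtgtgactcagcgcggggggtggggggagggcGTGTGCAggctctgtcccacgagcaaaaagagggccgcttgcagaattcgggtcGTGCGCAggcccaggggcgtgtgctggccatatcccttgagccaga

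The Mt1 window held 3 such matches and the Mt2 window 4. At least 3 matches occurred in 1.97% of 32851 promoter windows of the same length and at least 4 in 0.517%, while 25.7% held at least 1. In the stress list, 8 were higher in MII and 2 in two-cell M of 28 (28.6% and 7.14%, then 3 and 5 with quantile normalization, 3 and 4 with centring; median 2.13; -0.06 with centring). Gpx1, which reduces peroxides, was at 12.3, 9.29 and 6.85 FPKM in MII and 387, 274 and 628 in two-cell M (-5.46 ± 0.45 (SE), adjusted p = 2.34e-10). Gadd45b, a stress-response gene, was at 4.02, 4.9 and 2.16 in MII and 57.4, 83.7 and 103 in two-cell M (-4.5 ± 0.85 (SE), adjusted p = 8.91e-05). On the other side, Trp53, which encodes p53, was at 6.81, 5.42 and 9.36 in MII and 0.0234, 0.01 and 0.0647 in two-cell M (8.15 ± 1.03 (SE), adjusted p = 3.08e-07), and Hspa8, the constitutive HSC70 chaperone, was at 30.2, 12.9 and 16.6 in MII and 0.031, 0.999 and 1.68 in two-cell M (5.64 ± 1.44 (SE), adjusted p = 0.00184).

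**Figure D4:**
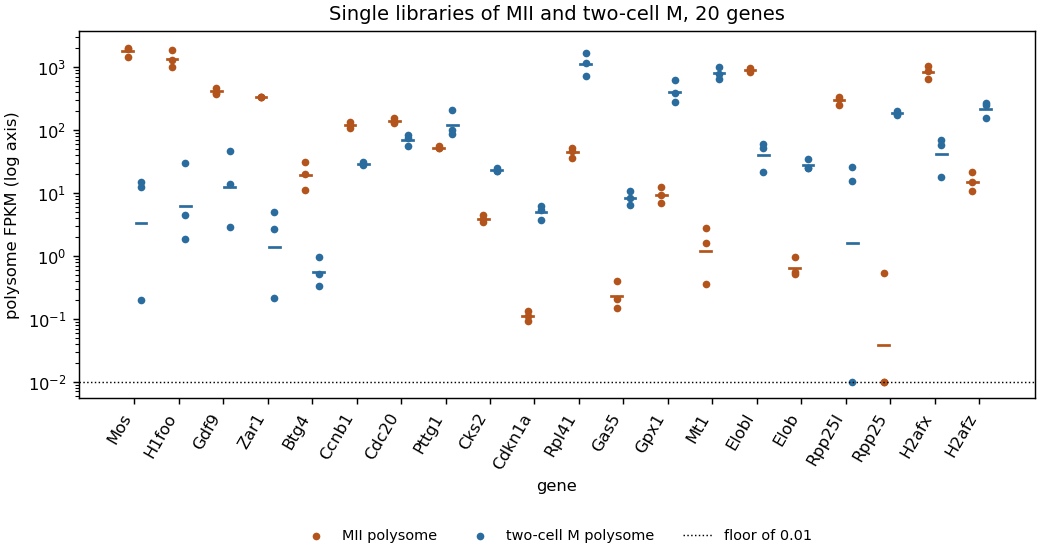
Polysome FPKM (log axis) of 20 genes in the single MII and two-cell M libraries, with short lines at each group's geometric mean and a dotted line at the floor of 0.01. Mos, Gdf9, H1foo and Zar1 separate with MII above, Mt1, Rpl41, Elob and H2afz separate with two-cell M above, and Cdc20 lies close between the groups.

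In several pairs of related genes one member was called and the other was not, or ran the other way. These pairs were picked after their values had been seen and are given as descriptions. Rpp25l, a relative of an RNase P subunit, was at 338, 315 and 254.6 FPKM in MII and 15.3, 0.01 and 25.5 in two-cell M, whereas Rpp25 was at 0.01, 0.01 and 0.5404 in MII and 183, 201 and 173 in two-cell M. Elobl was at 903, 830.3 and 957 in MII and 59.2, 21.6 and 52.6 in two-cell M (4.46 ± 0.32 (SE), adjusted p = 9.94e-12), the reverse of Elob. Elob stood far below Elobl in MII, and in two-cell M the levels of the pair lay close, with Elobl the higher in A and C. Pabpc1l, the embryonic poly(A)-binding protein of oocytes, was at 13.2, 8.099 and 14.4 in MII and 1.16, 0.0155 and 1.16 in two-cell M (5.39 ± 1.15 (SE), adjusted p = 0.000333), and Pabpc1, the somatic form, at 0.0396, 0.0238 and 0.0706 in MII and 1.24, 4.47 and 1.404 in two-cell M (-5.61 ± 1.61 (SE), adjusted p = 0.00476). For histone H2A variants, H2afx, the form phosphorylated at DNA breaks, was at 1035, 883 and 654 in MII and 17.7, 57.1 and 69.03 in two-cell M (4.35 ± 1.37 (SE), adjusted p = 0.00946), and H2afz, found at promoters, was at 10.9, 21.4 and 14.8 in MII and 155, 268 and 254 in two-cell M (-3.86 ± 0.54 (SE), adjusted p = 1.3e-06). Eif4e1b, the oocyte relative of the cap-binding protein, was at 9.71, 6.22 and 10 in MII and 0.0331, 0.134 and 4.47 in two-cell M (4.96 ± 0.98 (SE), adjusted p = 0.000142), and Eif4e itself was not called (0.06 ± 0.62 (SE), adjusted p = 0.943), except higher in two-cell M with centring (-2.14, adjusted p = 0.0104). The histone and poly(A)-binding pairs showed no overlap of the groups in any member. Gspt2, one of the eRF3 release factors, was at 10.5, 6.14 and 5.69 in MII and at the floor in all 3 two-cell M libraries. Gspt1 did not pass the filter and was not tested. It was at 0.0766, 0.0693 and 0.0424 in MII and 0.01, 0.887 and 0.121 in two-cell M, with overlapping groups. No 25-base word was shared within these pairs, so fragments could not have passed between their rows through exact matches of that length, except for Gspt1 and Gspt2, which share 0.753%. Among other pairs examined the same way, Rpl39 with Rpl39l, Rpl10 with Rpl10l and Ybx1 with Ybx2 had no member called on the deposited scale. Cpsf4 was not called and Ddx6 was not tested, and the partners of Cpsf4 and Ddx6 are not given here.

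The largest single changes were taken by rule from genes with a group mean of at least 10 FPKM and no library at the floor. Tpra1, which encodes a membrane protein, was at 149, 169 and 139 FPKM in MII and 1.09, 0.0169 and 0.01901 in two-cell M (11.07 ± 1.26 (SE), adjusted p = 5.25e-08). Hsd3b7, of bile acid synthesis, was at 86.2, 118 and 99.3 in MII and 0.0422, 0.0959 and 0.0381 in two-cell M (10.87 ± 0.49 (SE), adjusted p = 1.84e-15), and 91% of its 25-base words occur in other annotated genes. Pabpn1l, an oocyte poly(A)-binding protein of the nuclear family, was at 505, 576 and 577 in MII and 0.152, 6.06 and 0.0375 in two-cell M (10.73 ± 0.89 (SE), adjusted p = 2.23e-10). Plat, which encodes tissue plasminogen activator and is a classic mRNA woken by polyadenylation at maturation, was at 96.7, 107 and 51.3 in MII and 0.0161, 0.458 and 0.0172 in two-cell M (10.65 ± 1.34 (SE), adjusted p = 2.93e-07). Reep4, Nfil3, Snai3 and Derl3 completed the 8, with changes of 10.39, 10.13, 10.09 and 9.61 on the log2 scale.

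On the embryo side the rule gave Mt1 and 7 others. Ctsl, the lysosomal protease cathepsin L, was at 0.118, 0.152 and 0.132 FPKM in MII and 30.2, 34.2 and 21.4 in two-cell M (-7.72 ± 0.79 (SE), adjusted p = 9.02e-09), against 2.07 ± 0.914 (SD, n = 3) in interphase two-cell embryos. Guca1a, a guanylate cyclase activator, was at 0.139, 0.218 and 0.135 in MII and 29.3, 33.9 and 31.1 in two-cell M (-7.62 ± 1.15 (SE), adjusted p = 4.81e-06). Rep15, an effector of Rab15, was at 0.633, 0.388 and 0.351 in MII and 53.8, 47.9 and 22 in two-cell M (-6.44 ± 0.88 (SE), adjusted p = 1.07e-06). The pseudogene row Rpl9-ps6, at 0.759, 0.708 and 2.25 in MII and 161, 173 and 108 in two-cell M, shares 93.2% of its 25-base words with Rpl9 and may hold its fragments. Ankrd10, Gm29666 and E130309D02Rik completed the set, with changes of -6.81, -6.77 and -6.61.

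The lowest adjusted p-values belonged, in the MII direction, to Hsd3b7 (1.84e-15), Pdlim2 (3.07e-15), F8a (7.39e-15) and Nfil3 (8.16e-15). In the embryo direction they belonged to Mir6236 (5.58e-13), Gm1995 (1.11e-12), Gm20594 (1.47e-12) and AA414992 (2.16e-12). Mir6236 was at the floor in MII and at 16.7, 22.6 and 23.4 FPKM in two-cell M, and AA414992 at the floor and at 15.9, 14.2 and 42.8. Gm1995 was at 0.01, 0.01 and 0.0305 in MII and 53.2, 69.2 and 87.5 in two-cell M. In these 8 rows every library of one stage lay above every library of the other, which follows from choosing them by p in this comparison. The groups were also separate in 51.3% of all tested genes with MII above and in 13% with two-cell M above.

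Some genes lay at the floor in one whole group, so no fold is given for those named in this paragraph. In MII these included Riox1, a ribosomal oxygenase, at 63.2, 45.2 and 29.4 FPKM in two-cell M, Fthl17f, a ferritin-like gene of the X chromosome, at 55.3, 0.773 and 115, and Obox8. In two-cell M they included Ltc4s, leukotriene C4 synthase, at 78.4, 92.4 and 62.4 FPKM in MII, the claudin Cldn8 at 30.2, 75.9 and 38.3, Tmem102 at 35.1, 39.6 and 27.1, Tex19.2, a germ-cell gene, at 18.6, 42.8 and 35.7, and Mapk1ip1 at 32.1, 24.3 and 37.4. A value at the floor shows only that the gene is listed at its lowest value there.

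The most abundant polysomal mRNAs of each stage differed too. Among protein-coding rows the 8 highest in MII were Ubb, AU022751, Gja4, Mos, Tcl1, Sap18b, H1foo and Bcl2l10. Ubb, a ubiquitin gene, was at 4525, 3181 and 4986 FPKM in MII and 965, 1079 and 2919 in two-cell M (1.52 ± 0.3 (SE), adjusted p = 0.000157), was among the 8 highest protein-coding rows in both, and turned to -0.68 with centring. Gja4, the connexin that joins oocyte and granulosa cells, was at 2371, 1868 and 1901 in MII and 0.0885, 14.1 and 22.5 in two-cell M (9.39 ± 1.04 (SE), adjusted p = 3.41e-08). Tcl1, an activator of AKT, was at 1127, 1771 and 1509 in MII and 21.8, 29.9 and 90.3 in two-cell M (5.21 ± 0.56 (SE), adjusted p = 2.16e-08) after 1385 ± 92.9 FPKM (SD, n = 3) in interphase two-cell embryos. Sap18b was at 1109, 1505 and 1643 in MII and 369.6, 316 and 592 in two-cell M (1.77 ± 0.27 (SE), adjusted p = 5.62e-06; -0.43 with centring), and shares 98.8% of its 25-base words with Sap18.

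In two-cell M the highest protein-coding rows, above which several non-coding and pseudogene rows stood, included Gm20594, Hist1h2ap, Ubb, Rpl41, Dppa5a, Mt1 and Rps27rt. Hist1h2ap, a replication histone H2A, was at 111, 90.2 and 56.1 FPKM in MII and 2559, 3174 and 3428 in two-cell M (-5.2 ± 0.53 (SE), adjusted p = 6.59e-09). Gm20594, part of which matches the mitochondrial 16S rRNA, was at 72.7, 51.1 and 58.7 in MII and 4234, 3532 and 3864 in two-cell M (-6.01 ± 0.39 (SE), adjusted p = 1.47e-12). Dppa5a, a pluripotency-associated RNA-binding protein, was high in both groups and not called, at 557, 572 and 547 in MII and 1179, 874 and 481 in two-cell M (-0.5 ± 0.42 (SE), adjusted p = 0.319). Rps27rt, a copy of Rps27 with 93.3% shared words, was at 38.8, 51.3 and 38.5 in MII and 1019.6, 742 and 243 in two-cell M and missed the threshold (-3.74 ± 1.68 (SE), adjusted p = 0.0615).

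A tandem array on chromosome 11 gave some of the widest separations. It comprises 11 pseudogene rows of about 382 bases on the minus strand between 60560924 and 60680089 (GRCm38) that were grouped, after their values had been seen, by shared 25-base words. All 9 tested copies were higher in two-cell M, against 7.86% of all genes, in all 6 fits that left out a library. Most copies were low at the oocyte and zygote stages, so passing the filter rested largely on the two-cell stages. With the grouping made on the values too, this count is no support. Gm12621 was at 0.01, 0.0732 and 0.01 FPKM in MII and 1082, 1292 and 1361 in two-cell M, and Gm12615 at 0.688, 1.34 and 1.23 in MII and 1113, 1170.1 and 1051 in two-cell M (-10.06 ± 1.51 (SE), adjusted p = 4.34e-06). The Gm12621 mean was 0.01 in zygote M and 179 in interphase two-cell embryos, against 1245 in two-cell M. Gm12622 was the lowest of the 9 tested copies, at 66.97, 24.06 and 84.02 FPKM in two-cell M, and the 2 copies that the filter left out, Gm12619 and Gm12628, stood at means of 2.48 and 4.51. Fragments could have been placed on another copy where the words are shared, so the 9 copies cannot be counted as 9 separate signals.

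**Figure D5:**
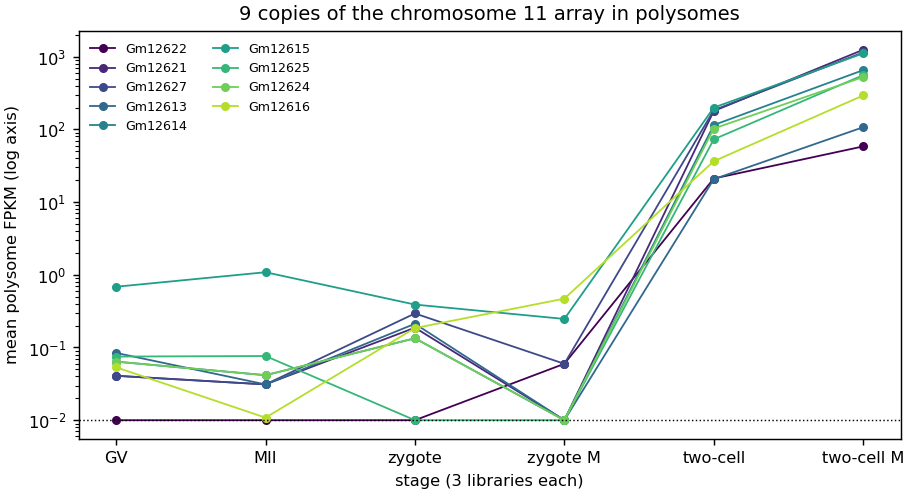
Mean polysome FPKM (vertical log axis, n = 3 libraries per stage) of the 9 tested copies of the chromosome 11 array at each of the 6 stages, in order of development. Each copy has a mean of at most 1.08 FPKM in the oocyte and zygote stages and a higher one in both two-cell stages, with Gm12621 at 1245 in two-cell M after 179 in interphase.

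The comparison was repeated in the non-polysome fractions of the same stages, which asks whether RNA outside polysomes differed in the same way. There, 4149 genes (52.1%) were higher in MII and 734 (9.21%) in two-cell M, 61.3% together, with a median of 3.39. The 3006 genes higher in MII in both fractions were 83.5% of the polysome calls and 72.5% of the non-polysome calls, and the 489 higher in two-cell M in both were 78.1% and 66.6%. Opposite calls occurred in 13 genes. Testing the difference between the fractions itself gave 37 genes (0.464%) with a positive difference, meaning a change further towards MII in polysomes than outside them, and 226 (2.84%) with a negative one, 3.3% together. The direction of this tally turned with centring, to 1046 positive and 68 negative, and the median difference went from -0.46 to 2.15. Slc30a1, a zinc exporter, had a fraction difference of 9.86 ± 2.26 (SE), adjusted p = 0.00949, and Hsp25-ps1, a copy of the heat shock gene Hspb1, one of -10.91 ± 0.80 (SE), adjusted p = 2.44e-10. The former was at a mean of 0.759 ± 0.108 FPKM in MII and 0.929 ± 1.12 in two-cell M polysomes (SD, n = 3), where it was not called (1.68 ± 1.6 (SE), adjusted p = 0.387), and at means of 0.0122 and 5.06 outside them. The mean of MII outside polysomes thus lies close to the floor, and the size of the difference depends on it. Hsp25-ps1 was at means of 12.4 and 12.6 FPKM in MII and two-cell M polysomes, and the groups overlapped. Outside polysomes its mean was 21.6 in MII and 0.01, the floor, in two-cell M, so the size of its difference depends on the offset too. For Mos the non-polysome change was 10.04 beside 9.07 in polysomes. For Mt1 these were -8.82 and -9.42, for Rpl41 -4.38 and -4.67, and for Elob -5.05 and -5.41.

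The MII to two-cell M change was next set against the change between the interphase stages that precede them, GV oocytes and two-cell embryos. The median GV over two-cell change was 0.85, and the difference between the changes was called positive, meaning a larger oocyte excess in M-phase, in 1489 genes (18.7%) and negative in 385 (4.83%), 23.5% together. This tally turned too, to 1158 positive and 1261 negative with quantile normalization and 743 and 921 with centring. Pdlim2, a cytoskeletal adaptor, was at 1.57 ± 0.609 FPKM in GV, 36.04, 26.6 and 38.8 in MII, 12.5 ± 4.74 in interphase embryos and 0.01, 0.0152 and 0.0167 in two-cell M, and its difference was 14.27 ± 0.75 (SE), adjusted p = 1.1e-13 (means with SD, n = 3). F8a, a huntingtin-associated protein, was at 32.4 ± 9.402 in GV, 127, 132 and 105.1 in MII, 107 ± 67.2 in interphase embryos and 0.0511, 0.01 and 0.0459 in two-cell M (13.62 ± 0.84 (SE), adjusted p = 2.4e-12). Cdc20 had a difference of 3.42 ± 0.51 (SE), adjusted p = 1.63e-05, since it was at 5.03 ± 0.723 in GV and 27.4 ± 7.32 in two-cell. Elob went the other way (-7.94 ± 0.98 (SE), adjusted p = 1.17e-06), with 4.31 ± 1.66 FPKM in two-cell embryos. Nocodazole was given to the M-phase embryos and not to the interphase ones, so drug and phase cannot be told apart here either.

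Zygotes in the M-phase of the first mitosis had received the same drug and share it with two-cell M. Against two-cell M, zygote M polysomes were higher in 3177 genes (39.9%) and lower in 943 (11.8%), 51.7% together, with a median of 2.04, while the median of MII over zygote M was 0.46. Mos was at 12.2 ± 4.01 FPKM in zygote M, Gdf9 at 142 ± 17.6, H1foo at 78.9 ± 35.6 and Zar1 at 71.4 ± 18.7 (means with SD, n = 3). On the embryo side, Mt1 was at 1.51 ± 0.468 in zygote M, Rpl41 at 7.895 ± 4.19, Hist1h2ap at 33.02 ± 17.8 and Elob at 0.498 ± 0.423. The contrast with zygote M shares the two-cell M libraries with the main one, and the values are given side by side only.

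Markers of the labelled and of other cells were checked. Of 10 oocyte and early embryo markers, 7 were higher in MII and 0 in two-cell M, against 45.2% and 7.86% of all genes. Rescaling gave 6 and 1 with quantile normalization and 3 and 1 with centring. In 1 marker every two-cell M value lay above every MII value. The summed level of these markers was 2293 to 3356 FPKM in MII and 125.1 to 350 in two-cell M. Cumulus and granulosa markers, 14 in number, had no member that passed the filter and summed to 0.954 to 4.92 FPKM in MII and 0.14 to 3.15 in two-cell M. Of the 6 sperm markers, 2 of 2 tested were higher in MII, and their sum was 4.16 to 6.87 in MII and 0.209 to 1.21 in two-cell M, with Prm2, a protamine, at 2.51, 2.87 and 4.84 in MII and at the floor in all 3 two-cell M libraries. Red blood cell markers summed to 0.04 in each MII library and to 24.4 to 42.5 in two-cell M. Hba-a1, an alpha globin, made up nearly all of it with 22.7, 41.4 and 29.7 FPKM in two-cell M and 53.4 ± 26.05 (SD, n = 3) in interphase two-cell embryos. The beta globins Hbb-bs and Hbb-bt were at the floor in all 6 libraries. White blood cell and oviduct markers summed to at most 1.20 and 6.80 FPKM in any library, the latter mostly Krt8 in MII (3.11, 4.197 and 6.71). The part of these markers in the gene differences was not tested.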

How the data were processed

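The authors trimmed reads with Trim Galore 0.4.1, aligned them to GRCm38 with STAR 2.5.3a and quantified genes in Partek, per the labels. The deposited table holds FPKM, to which the authors had added an offset of 0.01, with no counts, for 36 samples. SMART-seq v4 amplification, Nextera XT libraries and NovaSeq sequencing had been used, so no molecular identifiers correct for amplification. Here, log2 FPKM were fitted with limma 3.58.1 (R 4.3.3; lmFit and eBayes with a trend) over 12 groups, with no further offset, 24 residual degrees of freedom and the contrasts described, for genes whose geometric mean over the 36 libraries reached 0.1 FPKM. A call needed a Benjamini-Hochberg adjusted p under 0.05 and a change beyond 2-fold. The test that Partek offers was not used here. P-values of the fit rest on the spread within groups, pooled over the 12 groups and moderated along a trend, which may be partly technical. This pooled spread is not that of MII or two-cell M alone, whose replicates correlated at 0.92 to 0.93 and 0.67 to 0.71. With the 6 libraries alone the calls were 3116 higher in MII and 786 higher in two-cell M. Replicate groups of 3 were also compared by exact two-sided permutation, which cannot go below p = 0.1.

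Genes are named by rule: the 8 largest changes each way among called protein-coding genes with no overlap, no library at the floor and a mean of at least 10 FPKM; the 5 highest at the floor in one whole group; the 8 most abundant protein-coding genes per group; the 4 lowest adjusted p; list members with the largest changes or a defining role; the 4 largest interactions each way; and genes taken from the study or from the earlier results, both chosen on these samples and so no independent evidence (Cdc20, Cenpa, H2afz, Nip7, Ooep, Elob, Mos, Polr2i, Rpl35, Lsm7, Eif5a, Eif1b, H2afx). The study itself names Elobl, given with the gene pairs, and not Elob. The comparison, lists and genes were chosen with earlier results of these data known. The gene pairs, Obox7, Obox8, the chromosome 11 array, the Fthl17 genes and the rRNA and mitochondrial look-alike rows were added after their values were seen. A fitted change that involves libraries at the floor depends on the offset and is no bound. Overlapping sequence was counted as shared 25-base words between annotated transcripts with Python 3.11.15, pandas 2.3.3, numpy 2.4.6 and Biopython 1.88, and figures were drawn with matplotlib 3.10.9. Whether counting used strand is not given in the sources used here, so antisense partners cannot be told apart. The fit was also run on simulated data with planted changes, and the outcome of that run is not reported here. 2 samples of the labels have no column in the table and were not analysed here. Not every gene that the rule names is reported here.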

Additional observations from a re-analysis of the deposited data

Results flagged for a closer look

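Differences of the MII to two-cell M change between fractions were picked out by a test of the difference itself. The polysome change exceeded the non-polysome change in 37 genes and fell short of it in 226. The 4 largest each way were Gm21731 at 11.61, Slc30a1 at 9.86, Gm9124 at 9.33 and 4931428F04Rik at 8.49, and Gm13077 at -14.32, Rab11b-ps2 at -11.57, AV356131 at -11.01 and Hsp25-ps1 at -10.91, all as log2 differences of changes by limma. Their adjusted p-values were 0.0266, 0.00949, 0.0288, 0.00695, 2.21e-08, 9.16e-08, 0.0267 and 2.44e-10. The 4 negative rows had a mean of 0.01 FPKM, the floor, in two-cell M outside polysomes. Gm13077 was also at the floor in every MII polysome library, and Gm9124 in every two-cell M polysome library. The sizes and p-values of such rows depend on the offset. Rab11b-ps2 shares 96% of its 25-base words with Rab11b and Hsp25-ps1 90.9% with Hspb1.

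Differences between M-phase and interphase were picked out in the same way. The oocyte over embryo change was greater in M-phase in 1489 genes and smaller in 385. The 4 largest each way were Pdlim2 at 14.27, Gm6018 at 13.80, 2610306M01Rik at 13.72 and F8a at 13.62, and Tma7-ps at -11.50, Gm12481 at -11.41, Slc39a4 at -10.82 and Gm6733 at -10.49. Their adjusted p-values were 1.1e-13, 1.15e-07, 0.00365, 2.4e-12, 5.75e-05, 0.000654, 0.00792 and 0.00277. Tma7-ps was at the floor in every MII library. All of these rows except Gm6733 had at least 1 library at the floor in MII or two-cell M, so their sizes depend on the offset. Tma7-ps shares 74.9% of its words with Tma7, and Gm12481 shares all of its words with Fam221b on the opposite strand.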

How the results depend on the processing

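The number of genes higher in MII (3598) became 1489 when the geometric mean had to reach 1 FPKM, 2119 with an arithmetic mean of at least 1, 1835 with quantile normalization, 1557 with median centring and 1287 of 4645 genes with no library at the floor. The number higher in two-cell M (626) became 1710 without a filter, 282 with a geometric mean of at least 1, 376 for protein-coding genes only, 1808 with quantile normalization and 1447 with centring. In the non-polysome fraction the counts (4149 and 734) became 2694 higher in MII with 1 FPKM added; 1776 and 347 with a geometric mean of at least 1; 2529 higher in MII with an arithmetic mean of at least 1; 1776 and 1730 with quantile normalization; 787 and 2718 with centring; and, for two-cell M, 1499 without a filter, 468 for protein-coding genes and 355 with array weights. The positive fraction difference (37) became 144 with 1 FPKM added, 82 without a filter, 1046 with centring, 14 with array weights and 20 with equal protein-coding sums, and 23 to 69 with one library left out, lowest without MII A and highest without two-cell M B. The negative one (226) became 142 with 0.1 FPKM added, 119 with quantile normalization, 68 with centring and 430 with equal protein-coding sums, and 146 to 337 over the same libraries. The positive phase difference (1489) became 785 with a geometric mean of at least 1 and 743 with centring. The negative one (385) became 729 with 1 FPKM added, 708 without a filter, 241 with a geometric mean of at least 1, 246 for protein-coding genes, 1261 with quantile normalization, 921 with centring and 733 with polysome libraries only. Zygote M over two-cell M (3177 and 943) became 2024 higher with 1 FPKM added; 1426 and 447 with a geometric mean of at least 1; 1784 higher with an arithmetic mean of at least 1; 2081 and 1877 with quantile normalization; 1798 and 1513 with centring; and, for lower genes, 1997 without a filter and 626 for protein-coding genes. The difference of 1101 genes per library was 2996 at 0.1 FPKM and 450.3 at 10 FPKM. Filters change which genes are tested; otherwise the cause was not tested.

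Among named genes called on the deposited or the centred scale, centring turned the sign of Ubb (-0.68), Sap18b (-0.43), Hsp25-ps1 (-2.08), Cdc20 (-1.20), Polr2i (-0.43), Rpl35 (-0.74), Eif4e (-2.14), Eif6 (-0.87), Ccnb1 (-0.16) and Birc5 (-0.054). Among the genes named it also ended the calls of Gm9124, Ooep, Eif1b, H2afx, Mrpl12, Plk1, Wee2, Aurka, Aurkc, Tuba4a, Tubb4b, Zbed3, Zp1, Bmp15, Obox5, Mtf1, Psmb6, Lsm10, Mcm5 and Snhg18. Quantile normalization ended those of Gm9124, Rpl35, Mtf1 and Snhg18. Calls higher in two-cell M were gained by Rps27rt, Gm6733, Cenpa, Rpl39, Rpl10 and Ybx1 under both, by Rps27 with quantile normalization and by Dppa5a, Cdc20, Eif4e and Hsp25-ps1 with centring. Equal protein-coding sums ended those of Ubb, Sap18b, Polr2i, Rpl35, Eif6, Tuba4a, Tubb4b and Bmp15. A fit to the 6 libraries alone ended those of 2610306M01Rik, Lsm7, Eif1b, Rpp25l, Eif4e1b, Rps15a, Wee2, Tubg2, Mcm5 and Snhg18, and array weights those of Rpl9-ps6, Ankrd10, Gm9124, Nip7, Rpl35, Lsm7, Eif5a, Rps15a, Pttg1, Ccne1 and Snhg8. Among the 4645 genes with no library at the floor the non-polysome counts were 1949 and 552, the fraction ones 47 and 313, the phase ones 545 and 328 and the zygote M ones 1172 and 787. Equal protein-coding sums and the restriction to genes off the floor were chosen after seeing the data.

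Whether the replicate letters pair the samples cannot be decided from these values. Same-letter libraries correlated at 0.0064, 0.0185 and 0.0348 in their deviations, and libraries of different letters at -0.0335 to 0.0156. MII B and C correlated best with their own letter but MII A with two-cell M B. With a replicate block the calls were 3551 and 641. Without FPKM counts, sampling error per gene could not be set, and values near the floor rest on few fragments.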

Other observations

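The share of calls varied with the kind of gene. Of 196 lincRNAs tested, 59.7% were higher in MII and 12.2% in two-cell M, and of 6400 protein-coding genes 47.7% and 5.8%. Processed pseudogenes gave 27.0% and 13.9% of 891, and unprocessed pseudogenes 18.8% and 41.7% of 48. The unprocessed ones include the tested chromosome 11 copies except Gm12622, which is annotated as processed. Those copies can share fragments, yet each enters the share as a row of its own. The longest annotated transcript had a median of 2503.5 bases for genes higher in MII, 1454 for those higher in two-cell M and 2429 for all tested. Among protein-coding genes alone the medians were 2787, 2294 and 2847 bases.

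The ferritin-like Fthl17 genes of the X chromosome, singled out after their values were seen, were higher in two-cell M in all 3 members tested of 5 in the table, against 7.86% of all genes. All 5 were at the floor in every MII library, so passing the filter rested largely on libraries where they were high. The count is therefore no support. Fthl17f was at 55.3, 0.773 and 115 FPKM and Fthl17d at 0.01, 37.2 and 45.5 in two-cell M A, B and C, with Fthl17d at the floor in A and both at the floor in MII. The members share 25-base words with each other, so fragments may have been divided between them.

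The filter on low values set aside 15158 genes, 2619 of them at the floor in all 6 libraries. Among the rest, 367 had a mean of at least 1 FPKM in two-cell M and every two-cell M value above every MII value, and 82 showed the reverse. These genes enter neither count of calls.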
